A study of Homo sapiens with 9 samples.

Results

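RNA polymerase III copies the short genes of a cell: transfer RNAs, 5S ribosomal RNA, U6 small nuclear RNA and several other small non-coding RNAs. At most of these genes the factor TFIIIC recognises DNA inside the transcribed region and brings in TFIIIB, which is made of the TATA-binding protein TBP, BDP1 and BRF1, and TFIIIB then recruits the polymerase. At U6-type genes, whose promoters lie upstream, the complex SNAPc takes the place of TFIIIC and BRF2 takes the place of BRF1. This initiation machinery is described here in NCI-H1993 cells after knockdown of *TDRD9*, as 10 genes: the TFIIIB components *BDP1*, *BRF1*, *BRF2* and *TBP*, the TFIIIC subunits *GTF3C1*, *GTF3C2*, *GTF3C3* and *GTF3C4*, and *POLR3A* and *POLR3B*, which form the catalytic core of the polymerase.

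The members were every probe set that the array annotation assigns to only 1 of these genes, 34 probe sets of the 49293 tested and 10 genes of 18132. *BRF1* had 10 of them, *GTF3C3* 5, *BDP1*, *TBP*, *GTF3C2* and *POLR3A* 3 each, *BRF2*, *GTF3C1* and *GTF3C4* 2 each and *POLR3B* 1. The genes were chosen with the measured differences over siControl in view, since *BDP1* had been seen to be higher at 2 of its 3 probe sets. The differences between each siRNA and siControl are therefore given for the members as a description, with no p. The comparison of siTDRD9-2 with siTDRD9-1 was not used in the choice and was tested. Of the 34 probe sets, 27 had a mean of at least 5 on the log2 scale over the 9 arrays, and none was removed for a low value.

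NCI-H1993 is a human lung adenocarcinoma cell line, and *TDRD9* encodes a Tudor-domain RNA helicase. RNA came from 9 cultures, 3 transfected for 72 h with the siRNA siTDRD9-1, 3 with siTDRD9-2 and 3 with the control siRNA siControl. Every culture was therefore transfected, and no untransfected culture was included. The study's methods describe 3 independent transfection experiments, and the labels do not say whether cultures of the same replicate number shared one. Each RNA was measured on 1 Affymetrix PrimeView array, whose signal is given as log2, and 3 cultures a group limit the precision. The only *TDRD9* probe set had 4.94, 4.64 and 4.28 with siTDRD9-1, 6.12, 6.12 and 6.05 with siTDRD9-2, and 6.65, 6.80 and 6.93 with siControl. That left 0.221 of the siControl signal with siTDRD9-1 (limma adjusted p = 2.22e-05) and 0.617 with siTDRD9-2 (limma adjusted p = 0.00931).

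The arrays had medians between 5.75 and 5.80, and same-group pairs correlated at 0.994 to 0.998. At the probe set with the highest mean of each marker gene, the 6 epithelial markers had signals of 11.3 to 13.5, and 2 endothelial, 3 fibroblast and 3 leukocyte markers had signals of 2.26 to 7.52. The signals of poly-A RNA controls added to each sample, and of the cells' own 18S ribosomal RNA, differed between the groups. Their part in the results was not tested. The mean of the 24 poly-A control probe sets was 7.38 to 7.72 with siTDRD9-1, 7.59 to 7.77 with siTDRD9-2 and 8.22 to 8.48 with siControl. The 3′ minus 5′ difference, from 16 of these probe sets, was 0.996 to 1.17 with siTDRD9-1, 0.991 to 1.16 with siTDRD9-2 and 1.25 to 1.57 with siControl. The 3′ probe set of 18S ribosomal RNA was 13.1 to 13.7 with siTDRD9-1, 13.2 to 13.9 with siTDRD9-2 and 11.3 to 12.4 with siControl. Each of these measures separated the 6 siTDRD9 arrays from the 3 siControl arrays (two-sided exact permutation test, p = 0.0119, the smallest that this design allows). They were included because they had differed between the groups in an earlier analysis, so the p describes a known difference.

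Among the members, *BDP1* stood out by size, with its probe sets differing in direction. *BDP1* encodes a TFIIIB component common to both kinds of polymerase III promoter. Probe set 11721970_a_at had 5.78, 5.30 and 5.02 with siTDRD9-1, 5.73, 6.14 and 5.45 with siTDRD9-2, and 4.09, 3.77 and 2.92 with siControl. All cultures of both siRNAs were above all siControl cultures, by 1.77 on the log2 scale with siTDRD9-1 (SE 0.28) and by 2.18 with siTDRD9-2 (SE 0.28). The siControl cultures were spread widely, with replicate 3 the lowest. Their mean, 3.59, was below the lower quartile of each siControl array (3.78 to 3.80), and whether the probe set was above background there was not tested, so the size of its differences is uncertain. Each value is an average over a culture, so fewer cells with a transcript and less transcript per cell cannot be told apart.

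Probe set 11745668_a_at of *BDP1* gave 6.81, 6.75 and 6.58 with siTDRD9-1, 6.86, 7.05 and 7.13 with siTDRD9-2, and 5.32, 5.53 and 5.12 with siControl. Again no siRNA culture overlapped a siControl culture, and the differences were 1.39 (SE 0.12, 2.62-fold) with siTDRD9-1 and 1.69 (SE 0.12, 3.23-fold) with siTDRD9-2. The remaining *BDP1* probe set, 11721969_s_at, ran the other way. Its signals were 8.47, 8.80 and 8.37 with siTDRD9-1, 8.80, 8.66 and 8.57 with siTDRD9-2, and 8.81, 9.04 and 9.29 with siControl. Every culture of both siRNAs lay below every siControl culture, by 0.50 (SE 0.14) with siTDRD9-1 and 0.37 (SE 0.14) with siTDRD9-2, although the highest culture of each siRNA was almost level with the lowest siControl culture. Both siRNAs were set against the same 3 siControl arrays.

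**Figure D1:**
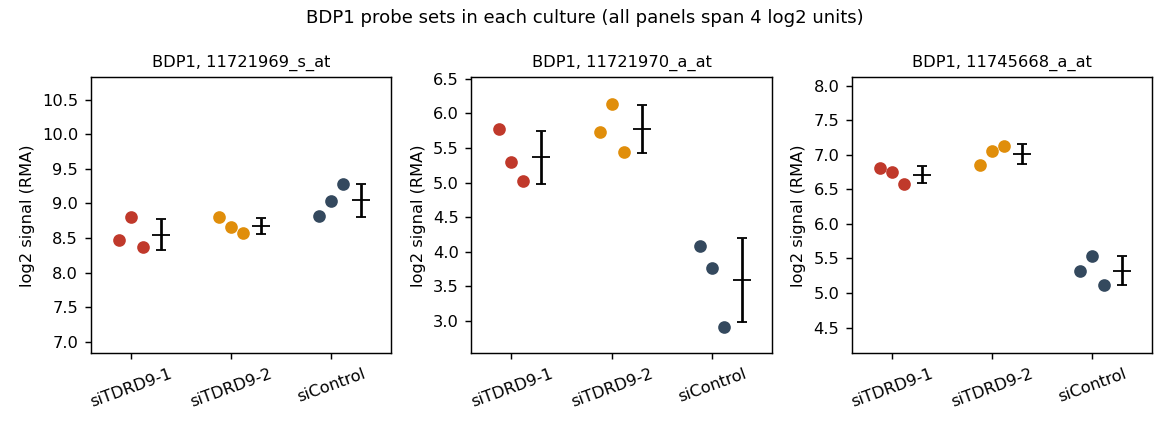
Log2 signal of the 3 *BDP1* probe sets (vertical axis, all panels spanning 4 units) in each culture with siTDRD9-1, siTDRD9-2 and siControl (horizontal axis). Points are cultures and the black mark is the mean ± SD (n = 3). At 11721970_a_at and 11745668_a_at the siRNA cultures sit above all siControl cultures, and at 11721969_s_at they sit below them.

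The letters that end a probe set name come from the array's design. Names in _a_at mark probes shared by transcripts of the same gene, names in _s_at mark probes shared by transcripts of different genes, and names in _x_at mark probes of which some resemble other sequences. Both *BDP1* probe sets with higher signal end in _a_at and the one with lower signal ends in _s_at. They also differ in the record used for their design, a GenBank cDNA or EST for the first pair and a RefSeq mRNA for the other. Whether suffix or record bears on the direction was not tested. Over the 9 arrays the first pair correlated with each other at r = 0.95 and with the _s_at probe set at r = -0.77 and -0.74, which describes arrays of 3 groups and not independent samples of 1 condition. The distance between the highest and the lowest difference within *BDP1* was 2.27 with siTDRD9-1 and 2.55 with siTDRD9-2. Across the 3173 genes with 3 single-gene probe sets the median of that distance was 0.257 with siTDRD9-1 and 0.279 with siTDRD9-2, and *BDP1* alone reached its own value. The upper end was 11721970_a_at, whose siControl signal was dim. Between 11745668_a_at and 11721969_s_at the distance was 1.89 with siTDRD9-1, reached by 5 of the 3173 genes with *BDP1* included, and 2.06 with siTDRD9-2, reached by 2. Since *BDP1* was chosen for this contrast between probe sets, the comparison is a description.

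Counted by the thresholds of the study's methods, an FDR under 0.01 and at least 2-fold, 2 of the 34 member probe sets were called higher with siTDRD9-1 and 2 with siTDRD9-2, both times the same *BDP1* pair, and 0 were called lower. Over all 49293 probe sets, 0.489% were called higher and 0.225% lower with siTDRD9-1, and 0.605% were called higher and 0.205% lower with siTDRD9-2. At an FDR under 0.01 alone, siTDRD9-1 had 2 members higher and 1 lower, beside 2.41% and 2.12% of all probe sets. With siTDRD9-2 there were 3 higher and 0 lower, beside 2.95% and 2.23%. The added calls were *TBP* 11735454_s_at with siTDRD9-1 and *BRF1* 11753474_a_at with siTDRD9-2. Without siControl replicate 2 or without siTDRD9-1 replicate 1, only 1 member, *BDP1* 11745668_a_at, was called with siTDRD9-1 under either threshold. Nothing is read from these counts, because the same contrasts chose the members.

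Signals that did not overlap between groups were more common than calls. With siTDRD9-1, 6 member probe sets lay wholly above and 5 wholly below siControl, beside 12.3% and 14.8% of all probe sets. With siTDRD9-2, 7 lay wholly above and 3 wholly below, beside 13.9% and 15.7%. The 5 that were above siControl with both siRNAs were the *BDP1* pair, 1 probe set of *BRF1* and 2 of *GTF3C2*, and the only one below with both was *BDP1* 11721969_s_at. The share over all probe sets with both siRNAs together was not counted, and both were set against the same siControl arrays. Nothing is therefore read from these joint counts. The median difference over the 34 probe sets was -0.01 with siTDRD9-1 and 0.06 with siTDRD9-2, beside 0.0016 and -0.019 over all probe sets. Without *BDP1*, 30 of 31 probe sets (96.8%) differed from siControl by less than 0.5 with siTDRD9-1 and 27 of 31 (87.1%) with siTDRD9-2, beside 93.6% and 92.6% of all probe sets.

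**Figure D2:**
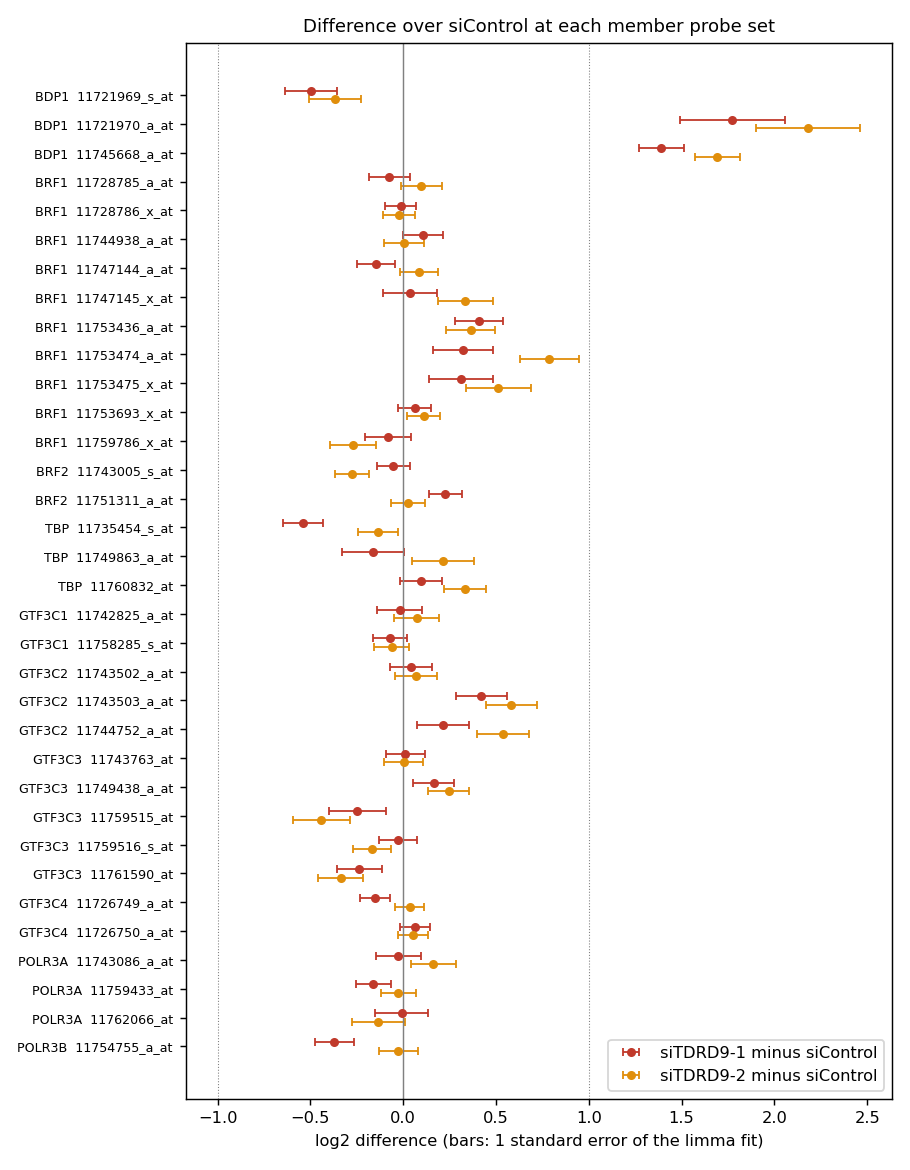
Log2 difference over siControl (horizontal axis) at each of the 34 member probe sets (rows, grouped by gene), with siTDRD9-1 in red and siTDRD9-2 in orange. Bars are 1 standard error of the limma fit and dotted lines mark 2-fold in each direction. The *BDP1* pair lies past the upper line with both siRNAs, and the other member probe sets lie between the lines.

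*TBP* encodes the TATA-binding protein, which also serves RNA polymerases I and II. Its probe set 11735454_s_at had 6.49, 6.71 and 6.41 with siTDRD9-1, 6.99, 6.90 and 6.93 with siTDRD9-2, and 6.90, 7.12 and 7.20 with siControl. The siTDRD9-1 cultures were below all others, with a difference of -0.54 (SE 0.11), whereas the siTDRD9-2 cultures overlapped siControl at -0.13 (SE 0.11). Probe set 11749863_a_at gave 6.42, 6.75 and 6.22 with siTDRD9-1, 6.78, 7.03 and 6.72 with siTDRD9-2, and 6.72, 6.30 and 6.87 with siControl. There the differences over siControl, -0.16 with siTDRD9-1 and 0.21 with siTDRD9-2, came with overlapping groups. The signals of 11760832_at were 3.35, 3.21 and 3.35 with siTDRD9-1, 3.53, 3.73 and 3.35 with siTDRD9-2, and 3.23, 3.07 and 3.32 with siControl. The siTDRD9-2 cultures were just above siControl (0.33, SE 0.11) and the siTDRD9-1 cultures overlapped it (0.10, SE 0.11). The siControl mean of 11760832_at, 3.20, was below the lower quartile of each siControl array (3.78 to 3.80). Whether this probe set was above background was not tested, so its differences are uncertain.

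*BRF1* encodes the TFIIB-related subunit of the TFIIIB used at transfer RNA genes, and its 10 probe sets did not move together. The largest difference with siTDRD9-2 was at 11753474_a_at, with 5.81, 5.81 and 5.74 for siTDRD9-1, 5.90, 6.67 and 6.19 for siTDRD9-2, and 5.53, 5.57 and 5.30 for siControl. Both siRNAs lay above siControl without overlap, by 0.32 (SE 0.16) for siTDRD9-1 and 0.79 (SE 0.16) for siTDRD9-2, and the siTDRD9-2 cultures were the most spread. Its neighbour in the array's numbering, 11753475_x_at, had 5.78, 5.57 and 5.94 with siTDRD9-1, 5.85, 6.34 and 5.70 with siTDRD9-2, and 5.64, 5.55 and 5.17 with siControl. Only siTDRD9-2 was clear of siControl there, by 0.51 (SE 0.17), against 0.31 (SE 0.17) with siTDRD9-1. At 11753436_a_at the signals were 5.89, 5.66 and 5.89 with siTDRD9-1, 5.68, 5.95 and 5.67 with siTDRD9-2, and 5.67, 5.23 and 5.30 with siControl. The groups touched at single cultures, with differences of 0.41 (SE 0.13) for siTDRD9-1, the largest of the gene with that siRNA, and 0.36 (SE 0.13) for siTDRD9-2.

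The other *BRF1* probe sets overlapped siControl with both siRNAs. Probe set 11747145_x_at had 6.01, 5.90 and 5.75 with siTDRD9-1, 5.89, 6.30 and 6.35 with siTDRD9-2, and 6.13, 5.72 and 5.70 with siControl. Probe set 11747144_a_at had 6.32, 6.20 and 6.0 with siTDRD9-1, 6.36, 6.36 and 6.48 with siTDRD9-2, and 6.43, 6.26 and 6.27 with siControl. The first differed from siControl by 0.04 with siTDRD9-1 and 0.33 with siTDRD9-2, and the second by -0.15 with siTDRD9-1 and 0.08 with siTDRD9-2. Probe set 11728785_a_at had 6.05, 6.26 and 6.22 with siTDRD9-1, 6.14, 6.47 and 6.43 with siTDRD9-2, and 6.38, 6.19 and 6.18 with siControl. For 11728786_x_at the signals were 7.31, 7.28 and 7.31 with siTDRD9-1, 7.18, 7.38 and 7.31 with siTDRD9-2, and 7.32, 7.31 and 7.31 with siControl. Here the differences with siTDRD9-1 and siTDRD9-2 were -0.08 and 0.10 at 11728785_a_at and -0.01 and -0.02 at 11728786_x_at, and the siControl cultures of the second were nearly identical.

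Of the last *BRF1* probe sets, 11744938_a_at had 6.23, 6.02 and 6.29 with siTDRD9-1, 6.12, 6.12 and 5.99 with siTDRD9-2, and 6.21, 5.89 and 6.12 with siControl. Signals of 11753693_x_at were 5.89, 5.85 and 5.99 with siTDRD9-1, 5.89, 5.93 and 6.05 with siTDRD9-2, and 5.89, 5.89 and 5.76 with siControl. These stayed within 0.11 of siControl in both comparisons. Probe set 11759786_x_at had 5.05, 4.84 and 4.98 with siTDRD9-1, 4.98, 4.84 and 4.50 with siTDRD9-2, and 5.15, 4.98 and 4.99 with siControl. It had the lowest siTDRD9-2 difference of the gene, -0.27 (SE 0.12), and its siTDRD9-1 difference was -0.08 (SE 0.12). Over the 10 probe sets the differences therefore ran between -0.15 and 0.41 with siTDRD9-1 and between -0.27 and 0.79 with siTDRD9-2.

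*BRF2*, the TFIIIB subunit of U6-type promoters, had 2 probe sets with a different pattern. Probe set 11743005_s_at gave 7.64, 7.86 and 7.67 with siTDRD9-1, 7.48, 7.52 and 7.50 with siTDRD9-2, and 7.74, 7.87 and 7.73 with siControl. Probe set 11751311_a_at gave 7.92, 7.81 and 7.93 with siTDRD9-1, 7.68, 7.74 and 7.64 with siTDRD9-2, and 7.79, 7.63 and 7.56 with siControl. At the first, siTDRD9-2 was below siControl in all cultures (-0.28, SE 0.09) and siTDRD9-1 overlapped it (-0.05, SE 0.09), and at the second siTDRD9-1 was above siControl in all cultures (0.23, SE 0.09) and siTDRD9-2 overlapped it (0.02, SE 0.09).

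**Figure D3:**
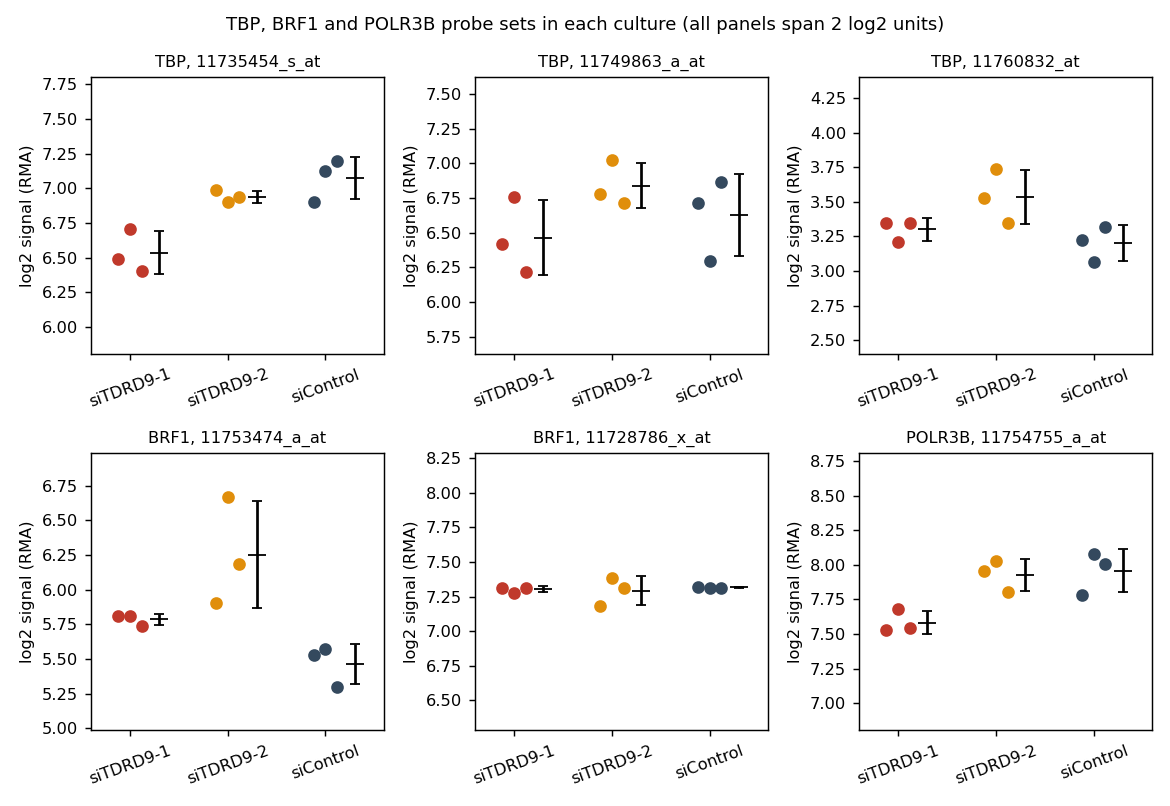
Log2 signal (vertical axis, all panels spanning 2 units) of the 3 *TBP* probe sets, 2 of the 10 *BRF1* probe sets and the *POLR3B* probe set in each culture with siTDRD9-1, siTDRD9-2 and siControl (horizontal axis). Points are cultures and the black mark is the mean ± SD (n = 3). The siTDRD9-1 cultures are the lowest at *TBP* 11735454_s_at and at *POLR3B*, and the siTDRD9-2 cultures are the highest at *BRF1* 11753474_a_at.

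Among the TFIIIC subunits, *GTF3C2*, whose product belongs to the part of TFIIIC that binds the B box, had 2 probe sets above siControl with both siRNAs. Probe set 11743503_a_at had 8.32, 8.35 and 8.34 with siTDRD9-1, 8.32, 8.36 and 8.83 with siTDRD9-2, and 8.0, 7.71 and 8.04 with siControl. Probe set 11744752_a_at had 6.99, 7.13 and 6.95 with siTDRD9-1, 7.08, 7.29 and 7.66 with siTDRD9-2, and 6.92, 6.62 and 6.88 with siControl. The differences with siTDRD9-1 and siTDRD9-2 were 0.42 and 0.58 at the first (SE 0.14 each) and 0.22 and 0.54 at the second (SE 0.14 each), with siTDRD9-2 replicate 3 the highest at both. The third probe set, 11743502_a_at, had 9.99, 10.15 and 10.13 with siTDRD9-1, 10.11, 10.01 and 10.24 with siTDRD9-2, and 9.92, 9.96 and 10.27 with siControl, and overlapped siControl with siTDRD9-1 (0.04) and with siTDRD9-2 (0.07).

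*GTF3C1*, the largest TFIIIC subunit and a contact of the B box, differed from siControl by -0.07 to -0.02 with siTDRD9-1 and by -0.06 to 0.07 with siTDRD9-2 at its 2 probe sets, with overlapping groups. The 5 probe sets of *GTF3C3*, a TFIIIC subunit that contacts TFIIIB, ran between -0.25 and 0.16 with siTDRD9-1 and between -0.44 and 0.24 with siTDRD9-2. One of them, 11761590_at, was below siControl in all siTDRD9-2 cultures, at 4.68, 4.71 and 4.43 with siTDRD9-2 and 4.84, 5.11 and 4.88 with siControl. The lowest difference with each siRNA was at 11759515_at, whose mean over the 9 arrays was only 3.49, so its size is uncertain. At 11743763_at, the brightest of the gene with a mean of 8.49, the differences were 0.01 with siTDRD9-1 and 0.002 with siTDRD9-2. *GTF3C4* encodes a TFIIIC subunit with histone acetyltransferase activity, and its probe set 11726749_a_at had 7.67, 7.68 and 7.75 with siTDRD9-1, 7.88, 7.94 and 7.84 with siTDRD9-2, and 7.85, 7.85 and 7.85 with siControl. That is a difference of -0.15 (SE 0.08) without overlap for siTDRD9-1 and of 0.03 (SE 0.08) with overlap for siTDRD9-2, while 11726750_a_at overlapped siControl with siTDRD9-1 (0.06) and siTDRD9-2 (0.05).

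*POLR3A* encodes the largest subunit of the polymerase, and its 3 probe sets lay between -0.16 and -0.01 with siTDRD9-1 and between -0.14 and 0.16 with siTDRD9-2. Only 11759433_at with siTDRD9-1 was clear of siControl, at 6.89, 6.99 and 6.94 with siTDRD9-1 and 7.07, 7.09 and 7.14 with siControl. *POLR3B*, which encodes the second-largest subunit, had 7.53, 7.68 and 7.54 with siTDRD9-1, 7.96, 8.03 and 7.80 with siTDRD9-2, and 7.78, 8.08 and 8.01 with siControl. All siTDRD9-1 cultures were below siControl (-0.37, SE 0.10), and the siTDRD9-2 cultures overlapped it (-0.03, SE 0.10).

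The direct comparison of siTDRD9-2 with siTDRD9-1 asks whether the members differ between the siRNAs, and it leaves the siControl arrays out of the difference. The siRNAs differ in sequence as well as in the strength of knockdown, and the comparison cannot tell these apart. In the limma fit 0 of the 34 member probe sets passed an FDR of 0.01 in either direction, beside 0.921% of all probe sets higher and 1.03% lower with siTDRD9-2. At an unadjusted p under 0.05 there were 10 members (29.4%), beside 20.5% of all probe sets. Without overlap, 6 members were higher and 2 lower with siTDRD9-2, beside 12.9% and 10.4% of all probe sets. The difference was above 0 at 22 of 34 members (64.7%), beside 48.4% of all probe sets, with a median of 0.11.

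The smallest adjusted p between the siRNAs was that of *TBP* 11735454_s_at, which was 0.41 higher with siTDRD9-2 than with siTDRD9-1 (95% interval 0.17 to 0.64, limma adjusted p = 0.0498). *POLR3B* was 0.35 higher (95% interval 0.12 to 0.58, limma adjusted p = 0.0811), and *BRF1* 11753474_a_at was 0.47 higher (95% interval 0.11 to 0.82, limma adjusted p = 0.123). In each of these, all siTDRD9-2 cultures were above all siTDRD9-1 cultures, and none passed the threshold. At the other *TBP* probe sets the differences were 0.38 (95% interval 0.01 to 0.74, limma adjusted p = 0.229) and 0.24 (95% interval -0.01 to 0.48, limma adjusted p = 0.272). The second was at 11760832_at, whose signal was dim.

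The *BDP1* pair was also not separated between the siRNAs by this threshold. Probe set 11721970_a_at differed by 0.41 (95% interval -0.21 to 1.02, limma adjusted p = 0.456) and 11745668_a_at by 0.30 (95% interval 0.04 to 0.57, limma adjusted p = 0.187), the second with all siTDRD9-2 cultures above all siTDRD9-1 cultures. At 11721969_s_at the difference was 0.13 (95% interval -0.18 to 0.44, limma adjusted p = 0.655). *TDRD9* itself was 1.48 higher with siTDRD9-2 in this comparison (limma adjusted p = 0.000426). Both *BRF2* probe sets were lower with siTDRD9-2 in all cultures, with differences of -0.22 (95% interval -0.42 to -0.02, limma adjusted p = 0.191) and -0.20 (95% interval -0.40 to -0.01, limma adjusted p = 0.232). A p above the threshold does not show that the siRNAs acted alike on these genes.

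**Figure D4:**
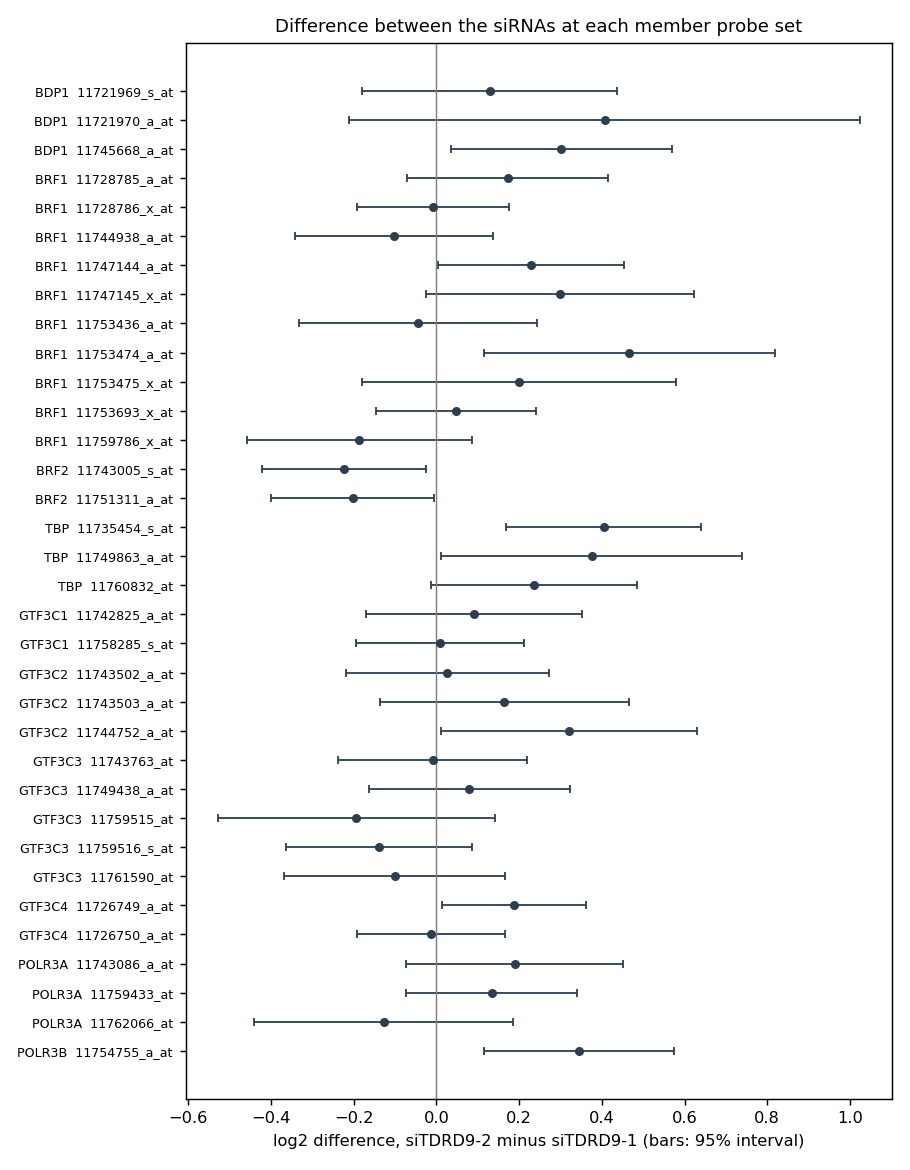
Log2 difference of siTDRD9-2 minus siTDRD9-1 (horizontal axis) at each of the 34 member probe sets (rows, grouped by gene), with 95% intervals of the limma fit that are not adjusted for the number of probe sets. The points lie to the right of 0 at 22 of 34, and *TBP* 11735454_s_at has the smallest adjusted p, 0.0498.

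The other genes of the polymerase III pathway, with 13 counterparts from RNA polymerases I and II, were read from 8 lists of 77 genes. Of these, 61 were measured by 163 single-gene probe sets, 35 of them of the counterparts. At an FDR under 0.01 in the limma fit, 5 probe sets were higher and 5 lower with siTDRD9-1, beside 2.41% and 2.12% of all probe sets. With siTDRD9-2, 7 were higher and 4 lower, beside 2.95% and 2.23%. These counts were near the shares over all probe sets, and 0 differed between the siRNAs. All 5 that rose with siTDRD9-1 belonged to *CRCP*, which encodes a polymerase III subunit and was first described as a component of a peptide receptor. The same 5 probe sets, of 6 in the gene, rose with siTDRD9-2.

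At *CRCP* 11735414_x_at the signals were 9.05, 8.96 and 8.96 with siTDRD9-1, 9.04, 9.19 and 9.19 with siTDRD9-2, and 8.19, 7.92 and 8.0 with siControl, which is 0.96 higher with siTDRD9-1 (SE 0.10, limma adjusted p = 0.000173) and 1.11 higher with siTDRD9-2 (SE 0.10, limma adjusted p = 6.6e-05). Probe set 11729276_a_at had 9.71, 9.84 and 9.51 with siTDRD9-1, 9.91, 9.98 and 9.92 with siTDRD9-2, and 8.88, 8.86 and 8.86 with siControl, a rise of 0.82 with siTDRD9-1 (limma adjusted p = 0.000402) and of 1.07 with siTDRD9-2 (limma adjusted p = 7.22e-05). The siRNA cultures were clear of siControl at both. With siTDRD9-1 and siTDRD9-2, 11729277_x_at rose by 0.89 and 1.04 and 11735413_x_at by 0.59 and 0.59, and 11749083_a_at rose by 0.43 (limma adjusted p = 0.0067) and 0.51 (limma adjusted p = 0.00226). The siTDRD9-1 call of 11749083_a_at was lost in 10 of 16 alternatives (adjusted p in limma up to 0.0378). The sixth *CRCP* probe set, 11729278_x_at, had 8.05, 8.32 and 7.99 with siTDRD9-1, 8.47, 8.32 and 8.23 with siTDRD9-2, and 8.39, 8.56 and 8.80 with siControl. Its differences were -0.46 with siTDRD9-1 (limma adjusted p = 0.0387) and -0.24 with siTDRD9-2 (limma adjusted p = 0.266), so that *CRCP*, like *BDP1*, had probe sets on both sides of siControl. Some probes of the _x_at sets resemble other sequences, and their signals are uncertain to that extent.

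*POLR1D*, which encodes a subunit shared by RNA polymerases I and III, was the only gene of these lists with a probe set lower at an FDR under 0.01 with both siRNAs, at 1 of 3 probe sets. Probe set 11720057_a_at had 8.06, 8.10 and 8.20 with siTDRD9-1, 8.62, 8.59 and 8.40 with siTDRD9-2, and 8.96, 9.02 and 9.14 with siControl. The differences were -0.92 with siTDRD9-1 (SE 0.10, limma adjusted p = 0.000199) and -0.50 with siTDRD9-2 (SE 0.10, limma adjusted p = 0.00584), and all siTDRD9-2 cultures were above all siTDRD9-1 cultures (0.42, limma adjusted p = 0.0251). The siTDRD9-2 call was lost in 9 of 16 alternatives (adjusted p in limma up to 0.0311). With siTDRD9-1 and siTDRD9-2 the other probe sets differed by 0.11 and 0.05 at 11717199_a_at and by -0.26 and -0.07 at 11755190_a_at, and neither passed the test.

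**Figure D5:**
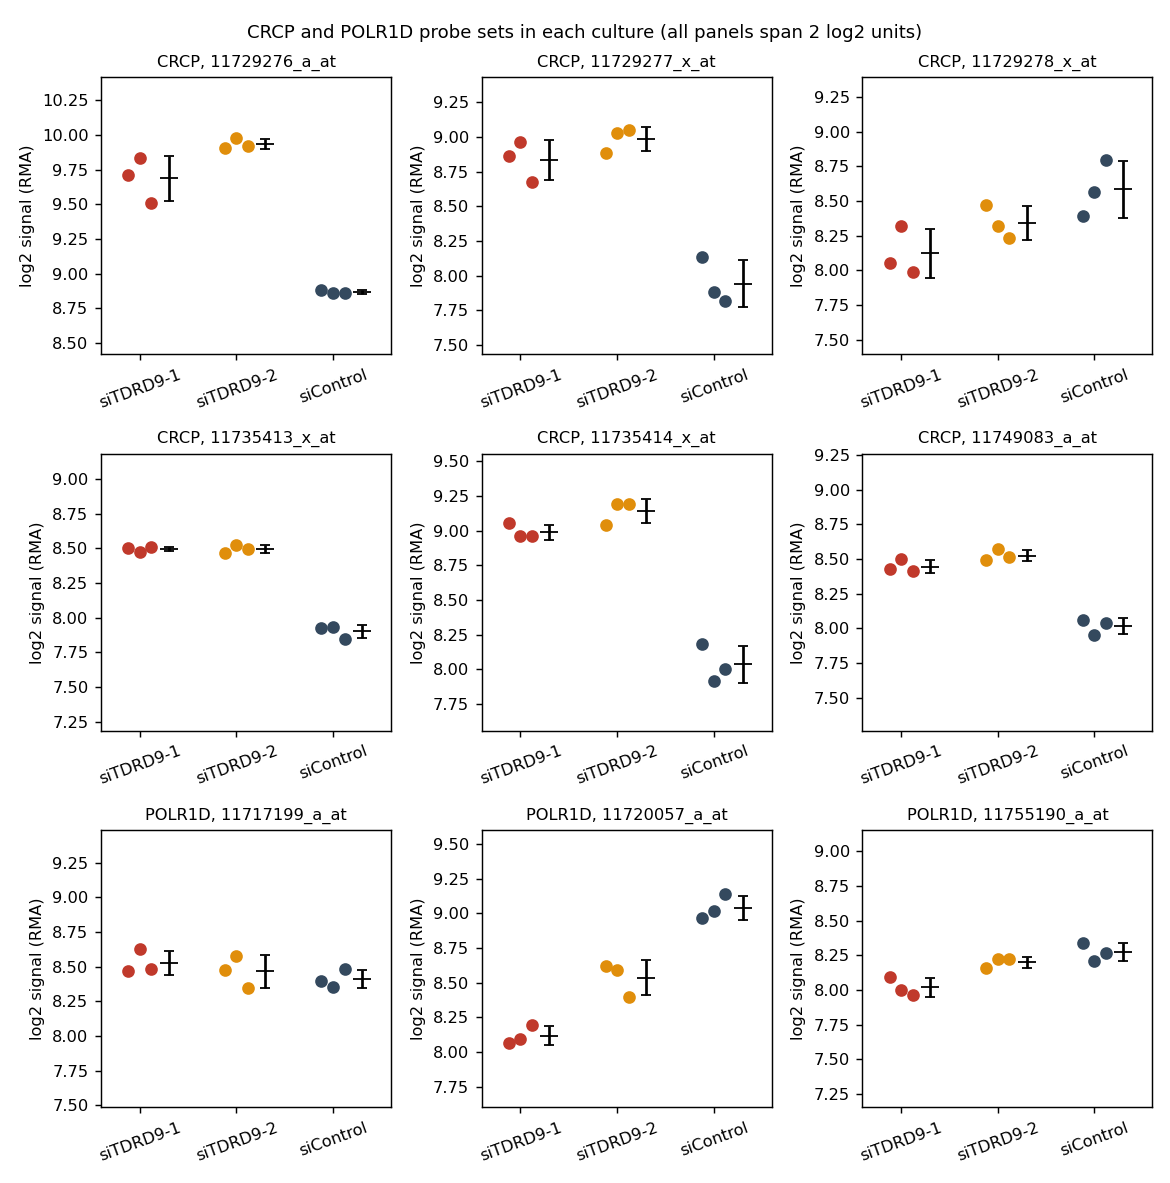
Log2 signal (vertical axis, all panels spanning 2 units) of the 6 *CRCP* and 3 *POLR1D* probe sets in each culture with siTDRD9-1, siTDRD9-2 and siControl (horizontal axis). Points are cultures and the black mark is the mean ± SD (n = 3). At 5 of 6 *CRCP* probe sets both siRNAs are above siControl, and at *POLR1D* 11720057_a_at both are below it.

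By role, and to be read against the same shares over all probe sets, the 3 other TFIIIC and TFIIIA genes had 6 probe sets, of which 3 were lower with siTDRD9-1 and 0 passed with siTDRD9-2. All 6 differences were below 0 with each siRNA, at -0.55 to -0.13 with siTDRD9-1 and -0.40 to -0.08 with siTDRD9-2. The nearest to passing with siTDRD9-2, named after its value was seen, was that of *GTF3C6*, a small TFIIIC subunit (-0.40, limma adjusted p = 0.0129). The other polymerase III subunits (7 of 9 genes measured, 21 probe sets) had the 5 *CRCP* probe sets higher and 1 lower with siTDRD9-1, and only the 5 with siTDRD9-2. Of 19 probe sets of the 7 shared subunits, the 1 of *POLR1D* was lower with each siRNA. SNAPc and its activators (6 of 7 genes, 18 probe sets) and the regulators of polymerase III (9 genes, 27 probe sets) had 0 at an FDR of 0.01 in the limma fit. Transfer RNA processing genes (16 of 18 genes, 37 probe sets) had 0 with siTDRD9-1, and 2 higher and 1 lower with siTDRD9-2. The counterparts in RNA polymerases I and II (13 genes, 35 probe sets) had 0 with siTDRD9-1 and 2 lower with siTDRD9-2.

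None of the 11 listed products of polymerase III, such as the RNA component of RNase P and 7SK RNA, had a single-gene probe set in the annotation used, so the output of the polymerase was not measured by them. The control probe set for Alu elements, whose own transcripts are polymerase III products but whose sequence also lies inside many messenger RNAs, had 13.87 to 14.02 with siTDRD9-1, 13.92 to 13.94 with siTDRD9-2 and 13.80 to 13.93 with siControl. The difference between siTDRD9 and siControl arrays was 0.055 (two-sided exact permutation test, p = 0.274).

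Over the 9 arrays, the single-gene probe sets of other genes closest to the mean of the higher *BDP1* pair were those of *MAP4K5* (Pearson r = 0.994), *FMR1* (0.994), *ZNF37A* (0.994), *PPIB* (0.992) and *PHLDB2* (0.991, probe set 11747152_a_at). Their sizes differed, with *FMR1* at 1.43 and 1.72 and *PPIB* at 0.32 and 0.42 over siControl with siTDRD9-1 and siTDRD9-2. The probe sets closest to *BDP1* 11721969_s_at were those of *USP6* (0.990), *SMC6* (0.990), *PHLDB2* (0.987, probe set 11737039_a_at), *UPF2* (0.985) and *CRLS1* (0.982). *PHLDB2* was on both lists through different probe sets, at 1.63 and 1.84 in the first and -0.46 and -0.30 in the second. The 9 arrays hold 3 groups, so the correlations rest largely on the group differences.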

How the data were processed

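Transcripts were measured in 9 cultures on PrimeView arrays. The log2 values, as deposited, were made by the authors with RMA in Affymetrix Expression Console, whose notes also name limma; versions are not given in the sources used here. The extraction text names other cells (HCT-shSLBP) and the labelling text a whole-transcript kit; the source name and characteristics (NCI-H1993) were followed.

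Of 49395 probe sets, 102 controls were set apart. The annotation table gave 1 gene to 44988 of the others, several to 1832 and none to 2473. With R 4.3.3 and limma 3.58.1, 1 model of 3 groups was fitted to 49293 probe sets and p-values were adjusted by the Benjamini-Hochberg method over all of them. Adjusted p-values in the text come from this model. The scripts were tested on simulated data.

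The members and lists were chosen with earlier results of these data known. Named were every member, with every probe set of *BDP1*, *TBP* and any member passing an FDR of 0.01, genes of the other lists passing it in 1 direction with both siRNAs, and the 5 probe sets most like each *BDP1* profile. Single values of other members were chosen after seeing them. Alternatives were a fit of only the groups compared, a replicate block, array weights, a variance trend, cyclic loess, centring on the median, dim probe sets (mean under 5) removed, an FDR of 0.05 with 1.5-fold, gene means over probe sets, and leaving out single arrays.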

Additional observations from a re-analysis of the deposited data

How the results depend on the processing

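The *BDP1* probe set 11745668_a_at was called under every alternative with both siRNAs. Its differences over siControl were among those that led to the choice of members, and every alternative drew on the same siControl arrays. These calls therefore describe the processing and are not separate support. Calls of members at 2-fold fell to 1 with each siRNA when only probe sets with a mean of at least 5 were kept, which removes *BDP1* 11721970_a_at, and ranged from 1 to 2 with siTDRD9-1 when an array was left out, with 1 without siControl replicate 2 and 1 without siTDRD9-1 replicate 1. At an FDR of 0.01 alone, members numbered 7 with each siRNA under array weights, and 1 to 3 with siTDRD9-1 when an array was left out. Calls over all probe sets by that threshold were not counted in these settings, so nothing is read from the member counts. *TBP* 11735454_s_at with siTDRD9-1 and *BRF1* 11753474_a_at with siTDRD9-2 were lost in most of the fits with an array left out. Between the siRNAs, array weights gave 3 of 34 members (*TBP* 11735454_s_at, *BRF1* 11753474_a_at and *POLR3B*), beside 5693 of all 49293 probe sets. Nothing is therefore read from these 3 calls. The other settings at an FDR of 0.01 gave 0 members.

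Probe sets of the other pathway lists at an FDR of 0.01, 10 with siTDRD9-1, numbered 44 with array weights, 16 with a mean of at least 5 and 5 to 13 with an array left out. With siTDRD9-2, 11 became 7 in a fit of 2 groups, 21 with array weights and 4 to 11 with an array left out. Between the siRNAs, 0 became 5 with a variance trend and 14 with array weights. *POLR1D* 11720057_a_at with siTDRD9-2 was lost in 9 of 16 alternatives and *CRCP* 11749083_a_at with siTDRD9-1 in 10 of 16. Over all probe sets, an FDR of 0.05 with 1.5-fold gave 1971 calls with siTDRD9-1 (352 at the thresholds used) and 2393 with siTDRD9-2 (399). Between the siRNAs 963 became 274 in a fit of 2 groups, 1752 with a variance trend, 5693 with array weights, 1516 with a mean of at least 5 and 274 to 743 with an array left out. The causes were not tested.

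The direction of *BDP1* as 1 value per gene depended on the choice: the probe set with the highest mean signal, 11721969_s_at, was at -0.50 and -0.37 over siControl with siTDRD9-1 and siTDRD9-2, and the mean over its 3 probe sets at 0.89 and 1.17. No difference of a single probe set called here changed sign under any alternative run. Same-numbered cultures of different groups correlated in their deviations from the group means at -0.150 to 0.150, so the numbers were not taken to pair them. With the replicate block, 2 members, the *BDP1* pair, were called at 2-fold with each siRNA. At an FDR of 0.01 alone, siTDRD9-1 had the same 2, and with siTDRD9-2 *BRF1* 11753474_a_at passed as well. The pair had led to the choice of members, and calls over all probe sets in that fit are not given here. Nothing is therefore read from these counts.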
